A study of Danio rerio with 6 samples.

Results

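The shortest transcribed loci of the zebrafish embryonic heart were described in RNA sequencing data from wild-type and tnnt2a morphant hearts. A locus was included when its width (end minus start in the authors' deposited table) was below 500 bp and the larger of its 2 group values was from 1 to below 1000 FPKM (fragments scaled to transcript length and to library size). Loci on chromosome 4 that start at 30000000 or beyond were left out. Of 16383 listed features, 160 met this rule. The loci were thus chosen by width and level, and both are given as a description. The width limit is not a break in the data: the widest included loci measured 496, 494 and 493 bp, and the next 3 loci measured 500 bp each. At the lower limit of level the included loci began at 1.08 FPKM, and a locus of 0.838 FPKM was left out. At the upper limit they ended at 819 FPKM, and a locus of 1038 FPKM was left out.

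Hearts were dissected at 54 hours post fertilisation (hpf), and each of the 6 libraries came from a pool of about 100 hearts, with 3 libraries from wild-type embryos and 3 from tnnt2a morphants. Morphants had received 1 ng of a morpholino, an antisense oligonucleotide, as embryos of a single cell. It is directed against tnnt2a, the gene of troponin T in heart muscle, which anchors the calcium-sensitive troponin complex to the thin filament. No dose of a control morpholino is given for the wild-type group, so effects of the injection and of the knockdown cannot be told apart. Total RNA was the input of the strand-specific library kit, per the labels. The deposited table holds 1 merged value per group, under the names control and sih (silent heart, the tnnt2a mutant), and sih was taken as the morphant group. Depth and the spread between the 3 libraries of a group are therefore unknown, no SD can stand beside any level, and the one replicate-based test is the authors' Cuffdiff q-value. Heart marker genes and tnnt2a itself could not be checked, because the table carries no gene names.

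The reagent that defines the morphant group is shown because every comparison rests on it. Capitals mark CAT, which is the reverse complement of ATG, the start codon triplet.
tnnt2a morpholino: CATgtttgctctgatctgacacgca

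Loci this short leave little room for introns. Among the genes of such length are small noncoding RNA genes, such as those of the small nuclear RNAs of the spliceosome, the small nucleolar RNAs that guide modification of ribosomal RNA, and the microRNAs. Replication-dependent core histone genes are also short and intronless. They lie in clusters of many copies, are transcribed mainly while DNA is replicated, and give mRNAs that end in a stem-loop in place of a poly(A) tail, so that total RNA libraries hold them where poly(A) selection loses many. Small RNAs shorter than a sequencing fragment are poorly captured by such libraries. None of the 160 identifiers matched the gene tables used here, so no locus was given a gene name.

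A few exact widths accounted for many of the short loci. The 160 loci took 73 distinct widths, and 6 widths held by at least 8 loci each accounted for 72 of them (45.0%). The most frequent width was 312 bp, with 18 loci. It was followed by 297 bp with 16, 387 bp with 11, 411 bp with 11, 217 bp with 8 and 375 bp with 8. Among 3402 comparison loci of 500 to 9000 bp within the same limits of level and chromosome, the 6 most frequent widths held 24 loci (0.705%). Their widths span a wider range, with 2766 distinct widths, so these shares are not like for like. A whole number of codons fits in 71.3% of the 87 loci of 300 to below 500 bp (62 loci, 95% Wilson interval 61.0% to 79.7%), against 34.2% of the comparison loci. Among the 35 loci under 200 bp it was 34.3%. The 62 loci include all 48 of 312, 375, 387 and 411 bp, so a few widths are counted many times. The Wilson interval treats these loci as independent. These counts, and the exact widths compared with RefSeq genes, take starts as counted from 0, which the table does not state. With starts counted from 1, each width would be 1 bp larger, and 9 of the 87 loci (10.3%) would hold a whole number of codons. No protein-coding RefSeq gene would then have the width of the loci given here as 312, 375, 387 and 411 bp.

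**Figure D1:**
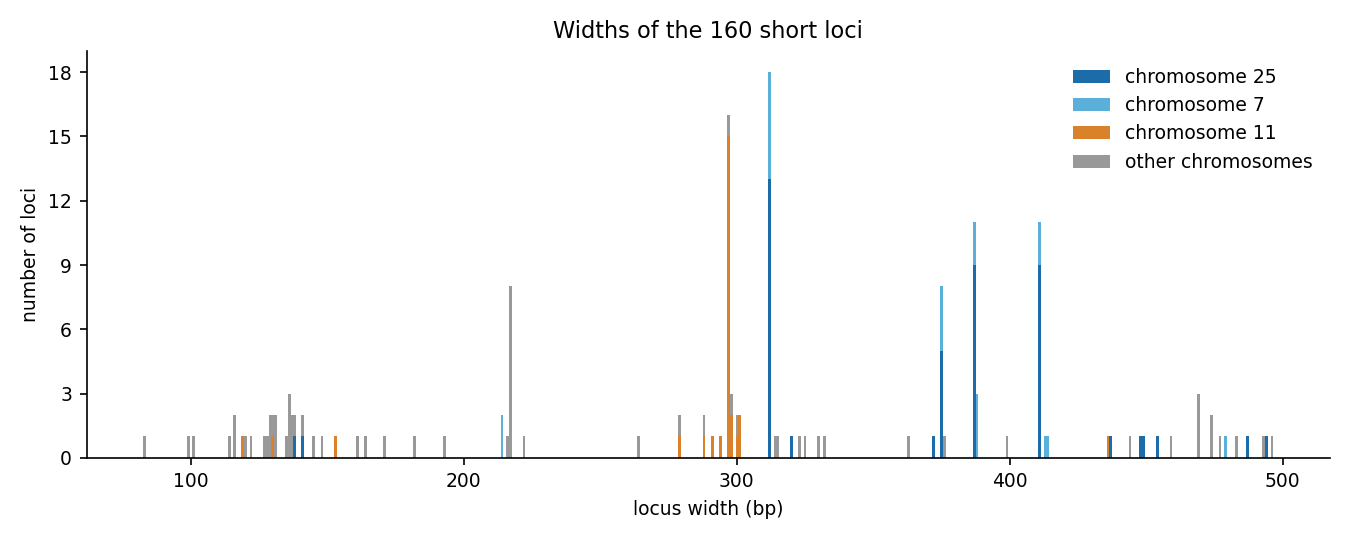
Number of short loci (vertical axis) at each exact locus width in bp (horizontal axis), with bars stacked by chromosome. The loci of 312, 375, 387 and 411 bp lie on chromosomes 25 and 7, and 15 of the 16 loci of 297 bp lie on chromosome 11.

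Repeated widths went with place in the genome. Chromosomes 25, 11 and 7 held 46, 28 and 20 short loci, or 58.8% of all 160, against 12.1% of all listed features. All 48 loci of 312, 375, 387 and 411 bp lay on chromosomes 25 and 7, with 13 and 5 at 312 bp, 5 and 3 at 375 bp, 9 and 2 at 387 bp, and 9 and 2 at 411 bp. Of the 16 loci of 297 bp, 15 lay on chromosome 11 and 1 on chromosome 20. The loci of 217 bp lay on chromosomes 1 (4), 14 (2) and 20 (2).

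The repeated widths recurred at close spacing along these chromosomes. Joining short loci less than 50 kb apart gave 6 clusters of at least 5 loci, which together held 81 of the 160. The fullest, on chromosome 25 (GRCz10, 34540844 to 34645975), held 27 short loci within 105 kb at a median spacing of 1.43 kb. Another on chromosome 25 (35760530 to 35820573) held 15 in 60.0 kb, and one on chromosome 7 (73591786 to 73636124) held 11 in 44.3 kb. Both clusters of chromosome 11 (11355182 to 11478981 and 12178036 to 12240137) held loci of 297 bp and near that width, 13 and 10 in all. A cluster on chromosome 1 (16234786 to 16246444) held 5, of which 4 measured 217 bp. No short locus overlapped another listed locus or shared its coordinates with one. Among all listed features, 2374 share coordinates with another. A short gene listed under the coordinates of a wider locus would exceed the width limit. The lack of overlap may thus follow from the rule and does not show that short transcripts stand alone.

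The RefSeq gene table of another assembly, GRCz12tu, gives context for these widths without naming any locus. Of its 14 gene symbols that start with hist, the prefix of histone genes, 7 are on chromosome 25 and 5 on chromosome 7. It holds 8 protein-coding genes of exactly 312, 387 or 411 bp and none of 375 bp, and all 8 are on those chromosomes. For 5 of the 8, a hist gene is among the 10 neighbouring genes on either side. Genes under 200 bp are mostly noncoding RNA genes there, with 8452 tRNA, 4055 rRNA, 1282 snRNA, 352 miRNA and 193 snoRNA genes among 14469. From 300 to below 500 bp the 91 RefSeq genes are mainly lncRNA (36) and protein-coding (33). The single RefSeq gene of 297 bp is mitochondrial, and no RefSeq gene measures 217 bp.

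Levels of the short loci were high for most of them. Their median was 107 FPKM in wild-type hearts, against 101 FPKM in morphants (quartiles 10.9 to 281 and 6.34 to 317), while the comparison loci had medians of 6.63 and 7.57 FPKM. The most abundant was a 298-bp locus on chromosome 2 (42737319 to 42737617), at 757 FPKM in wild-type hearts, against 819 FPKM in morphants. A 388-bp locus on chromosome 7 (73600357 to 73600745) stood at 701 and 818 FPKM. A 375-bp locus on chromosome 25 (34627131 to 34627506) stood at 795 and 707 FPKM, and a 297-bp locus on chromosome 11 (12179130 to 12179427) at 656 and 775 FPKM. The fifth was a 214-bp locus on chromosome 7 (7545593 to 7545807), at 699 and 511 FPKM. None of the 5 was called (q from 0.517 to 0.862 in the authors' deposited table), against 6.23% of all listed features. An FPKM value is divided by length, so that a given number of fragments makes a higher value on a shorter locus.

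The 48 loci of 312, 375, 387 and 411 bp made up 48.2% of the summed level of the short loci in wild-type and 45.4% in morphant hearts. By width the median level in wild-type hearts was 479 FPKM at 375 bp, 337 FPKM at 312 bp, 195 FPKM at 411 bp and 183 FPKM at 387 bp. The order was the same in morphant hearts, at 431, 290, 201 and 151 FPKM. The ranges of these widths overlapped, and whether neighbours in this order differ beyond the spread between libraries is unknown. Copies of 1 width ranged in wild-type hearts from 96.8 to 678 FPKM at 312 bp and from 5.42 to 436 FPKM at 387 bp. The 16 loci of 297 bp were more uneven, from 1.07 to 669 FPKM in wild-type and from 2.13 to 775 FPKM in morphant hearts. The 8 loci of 217 bp were low, with none above 22.5 FPKM in either group.

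**Figure D2:**
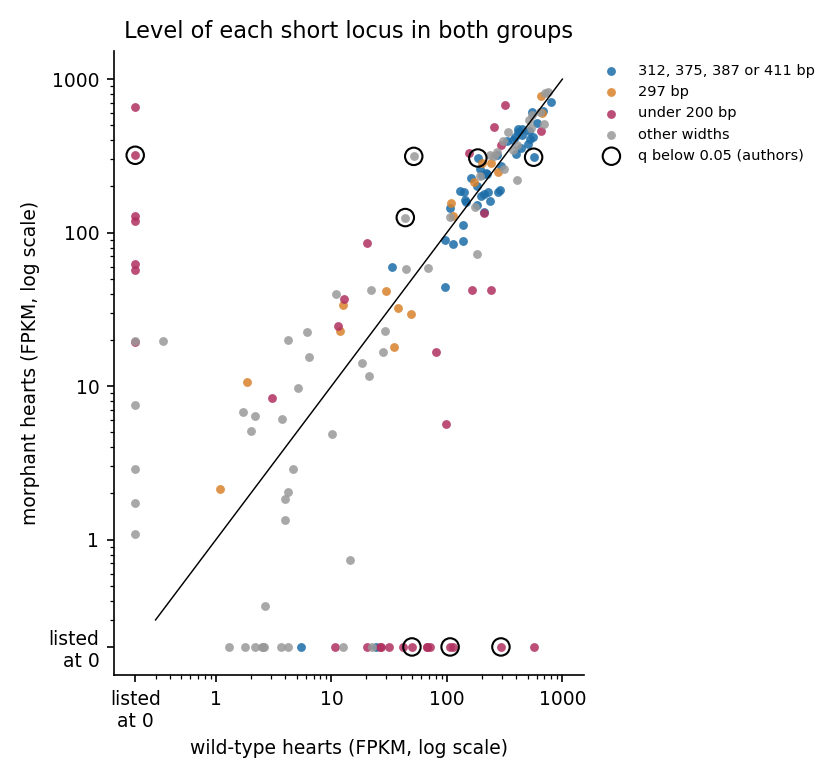
Level of each of the 160 short loci in wild-type hearts (horizontal axis, FPKM, log scale) and morphant hearts (vertical axis, FPKM, log scale), coloured by width, with loci listed at 0 placed at the end of each axis and the line marking equal levels. Of the 48 loci of 312, 375, 387 and 411 bp, 43 reach at least 100 FPKM in 1 group, whereas 21 of the 35 loci under 200 bp are listed at 0 in 1 group, and circles mark the 8 called loci.

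Between wild-type and morphant hearts, 8 of the 160 short loci differed at a q-value below 0.05 in the authors' deposited table (5.00%), against 6.23% of all 16383 listed features. Of these, 4 were higher in morphants (2.50%, against 3.33% of all) and 4 were lower (2.50%, against 2.91% of all). These shares are near the background of the table. In whole hearts, fewer cells of a type and less RNA per cell cannot be told apart. By the authors' deposited table, p was below 0.05 before adjustment for 27 of 160 (16.9%), against 17.8% of all.

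The largest called rise above 0 in both groups was that of XLOC_028928, a 300-bp locus on chromosome 8 (22944377 to 22944677). It stood at 51.7 FPKM in wild-type hearts, against 314 FPKM in morphants, 6.08-fold higher (log2 ratio 2.60, with a q-value of 0.0210 in the authors' deposited table). XLOC_003081, a 298-bp locus at the edge of a chromosome 11 cluster (12178036 to 12178334), rose 2.87-fold from 43.6 to 125 FPKM (q-value 0.0494 in the authors' deposited table). The 297-bp locus 796 bp further on was not called, at 656 and 775 FPKM. The remaining rise above 0 was that of a 387-bp locus on chromosome 25 (34635401 to 34635788), from 185 to 306 FPKM (log2 ratio 0.72, with a q-value of 0.0374 in the authors' deposited table).

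XLOC_019114 was the sole called fall above 0 in both groups. This 312-bp locus on chromosome 25 (34632121 to 34632433) measured 564 FPKM in wild-type hearts, against 310 FPKM in morphants, 1.82-fold lower (log2 ratio -0.86, with a q-value of 0.00468 in the authors' deposited table). It lies 2968 bp from the called rise of 387 bp, so that calls in opposite directions fell within 1 cluster.

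The other 4 calls were loci under 200 bp that are listed at 0 in 1 group, for which no fold is given. A 116-bp locus on chromosome 20 (48782103 to 48782219) is listed at 0 in wild type and stood at 319 FPKM in morphants (q = 0.00173 in the authors' deposited table). A 122-bp locus on chromosome 20 (23182968 to 23183090) had 294 FPKM in wild type and is listed at 0 in morphants (q = 0.00173 in the authors' deposited table). A 137-bp locus 272 bp before it went the other way, at 256 and 491 FPKM, and carried no call (q = 0.603 in the authors' deposited table). A 193-bp locus on chromosome 13 (22173762 to 22173955) at 49.8 FPKM and a 141-bp locus on chromosome 25 (5213091 to 5213232) at 107 FPKM in wild type are also listed at 0 in morphants (q = 0.00173 and 0.0494 in the authors' deposited table).

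Short loci were listed at 0 in 1 group more often than comparison loci of like level. This held for 38 of 160 (23.8%, 95% Wilson interval 17.8% to 30.9%), of which 12 were at 0 in wild type and 26 in morphants. Weighting the comparison loci to the same mix of 4 bands of level gave 2.37%. Between 20 and 100 FPKM it was 13 of 35 short loci (37.1%) and 7 of 748 comparison loci (0.936%), and between 100 and 1000 FPKM 8 of 89 (8.99%) and 5 of 295 (1.69%). Of the 38, 21 were among the 35 loci under 200 bp (60.0% of these), and 34 were not called. Among loci of at least 20 FPKM, 19 of 32 short loci under 200 bp were listed at 0 in 1 group (59.4%). At that level it was 1 of 69 short loci of 300 to below 500 bp (1.45%), near the 12 of 1043 comparison loci (1.15%). The highest uncalled pair was an 83-bp locus on chromosome 20 (39002651 to 39002734), listed at 0 in wild type and at 656 FPKM in morphants (q = 0.340), and a 99-bp locus on chromosome 17 (3835090 to 3835189), at 566 FPKM in wild type and listed at 0 in morphants (q = 0.30, both in the authors' deposited table). Locus width and level move with these zeros, and their part in them was not tested. Features with Cuffdiff p-values above 0.767 are not listed, so these are shares of listed loci and not of all loci of such width. A value of 0 is read here as listed at 0, not as absence of the RNA.

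**Figure D3:**
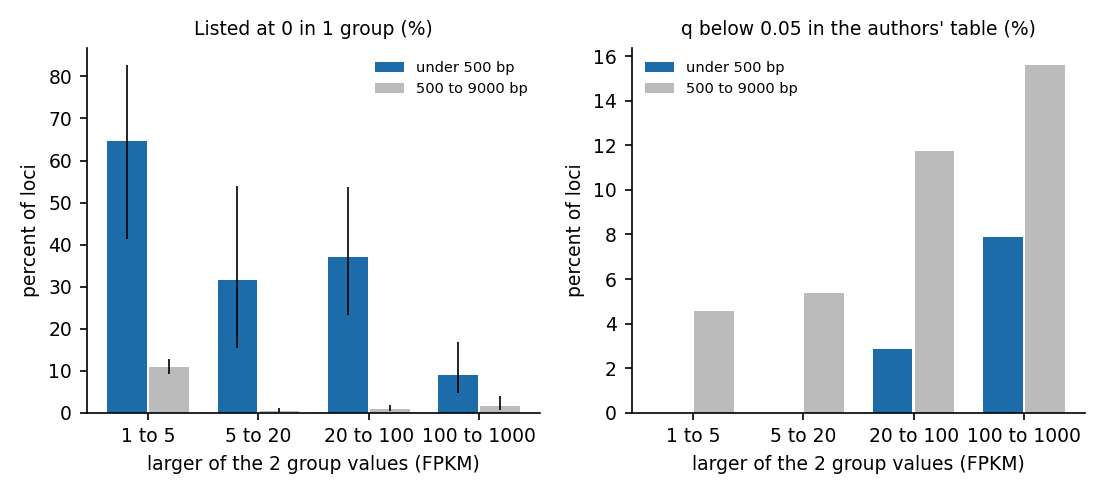
Percent of loci (vertical axes) in 4 bands of the larger group value in FPKM (horizontal axes), for short loci (blue) and loci of 500 to 9000 bp (grey). Left, loci listed at 0 in 1 group with 95% Wilson intervals that treat loci as independent, where the short loci are higher in every band; right, loci with q below 0.05 in the authors' deposited table, where they are lower in every band.

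A smaller share of the short loci than of comparison loci of like level was called, but not among the loci under 200 bp. Weighted to the same bands, 12.4% of the comparison loci were called, against 5.00% of the short loci (95% Wilson interval 2.56% to 9.56%, which treats loci as independent). In the band of 100 to 1000 FPKM it was 46 of 295 comparison loci (15.6%) and 7 of 89 short loci (7.87%). Among loci of at least 20 FPKM, 4 of 32 short loci under 200 bp were called (12.5%), against 134 of 1043 comparison loci (12.8%) and 3 of 69 short loci of 300 to below 500 bp (4.35%). Below 20 FPKM none of the 36 short loci was called by Cuffdiff, with 3 at an unadjusted p-value below 0.05. Of the comparison loci, 56 of 1223 between 1 and 5 FPKM (4.58%) and 61 of 1136 between 5 and 20 FPKM (5.37%) were called. At such shares few calls would fall among 36 loci. No test was run on these shares, and an equal FPKM is not an equal number of fragments where widths differ. They too are shares of listed loci, with Cuffdiff p-values up to 0.767.

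With loci listed at 0 counted by direction, a smaller share of the short loci than of the comparison loci was higher in morphants. Of the 160, 77 were higher in morphants (48.1%, 95% Wilson interval 40.5% to 55.8%), against 59.5% of the comparison loci after weighting. Among the short loci, 12 at 0 in wild type thus count as higher and 26 at 0 in morphants as lower. Among the 122 short loci above 0 in both groups the median log2 fold change was 0.10 (95% order-statistic interval -0.15 to 0.22), and the weighted median of the comparison loci was 0.16, which lies inside that interval. Over all listed features in the same range of level the median log2 fold change was 0.13, and relative to it the short loci stood at -0.03. With folds centred on that shift, 69 of the 160 short loci were higher (43.1%), against 54.1% of the comparison loci after weighting. Loci at 0 were again counted by direction. Among loci above 0 in both groups, 57 of 122 short loci and, without weighting, 1818 of 3250 comparison loci were above the shift. The listed loci are those with Cuffdiff p-values up to 0.767, so loci with larger p-values are missing from both sets, whatever the size of their difference. Of the 122, 30 differed at least 2-fold (24.6%), against 14.4% of the comparison loci after weighting and 26.1% without it. Whether this 2-fold share was larger or smaller among the short loci depended on level. Between 100 and 1000 FPKM it was 7 of 81 short loci (8.64%) and 34 of 290 comparison loci (11.7%). In each lower band the share was larger among the short loci, though on few loci. From the lowest band up it was 4 of 6, 10 of 13 and 9 of 22. The comparison loci had 45.5%, 20.2% and 12.3% in those bands.

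The loci of 312 bp were mostly lower in morphants, and those of 411 bp mostly higher. At 312 bp, 14 of 18 were lower and the median log2 fold change was -0.26 (95% order-statistic interval -0.55 to -0.06), on both chromosome 25 (10 of 13) and chromosome 7 (4 of 5). Relative to the shift of 0.13 it was 15 of 18, with a median of -0.38. Their summed level was 6147 FPKM in wild-type hearts, against 5236 FPKM in morphants, a ratio of 0.852. At 411 bp, 9 of 11 were higher, with a median log2 fold change of 0.20 (95% order-statistic interval -0.10 to 0.51), and 7 of 11 were above the shift. Their summed level went from 2202 to 2530 FPKM, a ratio of 1.15. The folds at 312 bp ran from -1.13 to 0.48 and those at 411 bp from -0.20 to 0.85, so the 2 widths overlapped. These widths were picked out after their values were seen, and the difference between them was not tested. The intervals treat loci of 1 width as independent and do not measure variation between embryos, so they are no test of a fall or rise. Cuffdiff called 1 of the 18 loci of 312 bp (5.56%) and none of the 11 of 411 bp, against 6.23% of all listed features. Its unadjusted p-value was below 0.05 for 4 (22.2%) and 2 (18.2%) of them, against 17.8% of all.

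The loci of 375 bp were evenly divided, with 4 higher and 4 lower, folds from -0.42 to 0.24, and summed levels of 3738 and 3586 FPKM. At 387 bp, 4 of 11 were higher and 7 lower, of which 2 of the lower, at 5.42 and 24.5 FPKM in wild type, are listed at 0 in morphants. The summed level at 387 bp was 1944 and 1793 FPKM. Over the 48 loci of all 4 widths the sum was 14031 FPKM in wild-type hearts, against 13145 FPKM in morphants, a ratio of 0.937. Without matching on level the ratio was 1.06 for the comparison loci and 1.01 for all listed features of the same range. Between 100 and 1000 FPKM it was 0.940 for 43 of the 48 loci and 1.05 for the comparison loci. Where copies are near-identical in sequence, reads can be divided between them in more than 1 way. How far this touches single loci or sums over a width was not tested. Sequences were not analysed here.

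**Figure D4:**
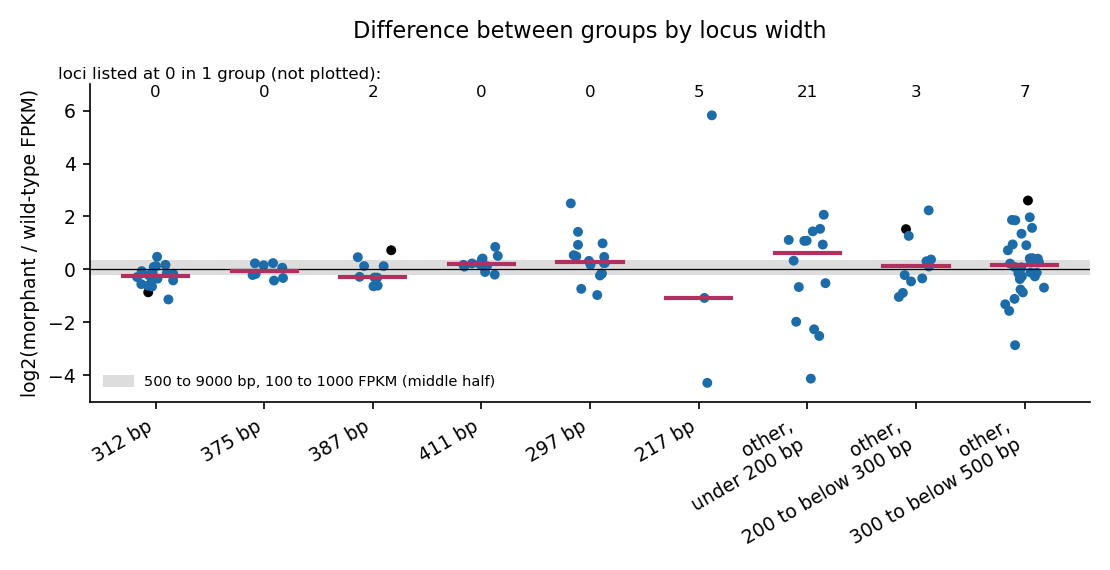
Log2 ratio of morphant to wild-type FPKM (vertical axis) for each short locus above 0 in both groups, by locus width (horizontal axis), with red bars at medians, black points for called loci and the grey band for the interquartile range of comparison loci of 100 to 1000 FPKM. Points at 312 bp lie mostly below 0 (median -0.26) and those at 411 bp mostly above (median 0.20), and numbers at the top count loci listed at 0 in 1 group.

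Each cluster held loci that were higher and loci that were lower in morphants. In the fullest cluster on chromosome 25, 12 of 27 loci were higher in morphants, and the summed level went from 9133 to 8821 FPKM (ratio 0.966). The second chromosome 25 cluster had 6 of 15 higher and a ratio of 0.913, and the chromosome 7 cluster 7 of 11 and 1.02. Folds above 0 in both groups spanned -0.86 to 0.72 in the fullest cluster. On chromosome 11 the first cluster had 7 of 13 loci higher (sums of 1632 and 1703 FPKM, ratio 1.04) and the second 7 of 10 (1689 and 2114 FPKM, ratio 1.25). The span of the second also holds a 297-bp locus that the upper limit of level left out. That locus went from 1162 FPKM in wild-type hearts to 873 FPKM in morphants, more than any locus counted there, and the ratio of 1.25 does not include it. Over the 16 loci of 297 bp, 11 were higher in morphants, with a median log2 fold change of 0.28 (95% order-statistic interval -0.16 to 0.93). The left-out locus of that width, which was lower in morphants, is not among the 16. None of the 16 was called or had an unadjusted Cuffdiff p-value below 0.05, against 6.23% and 17.8% of all listed features. With 16 loci, few would be reached at those shares.

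**Figure D5:**
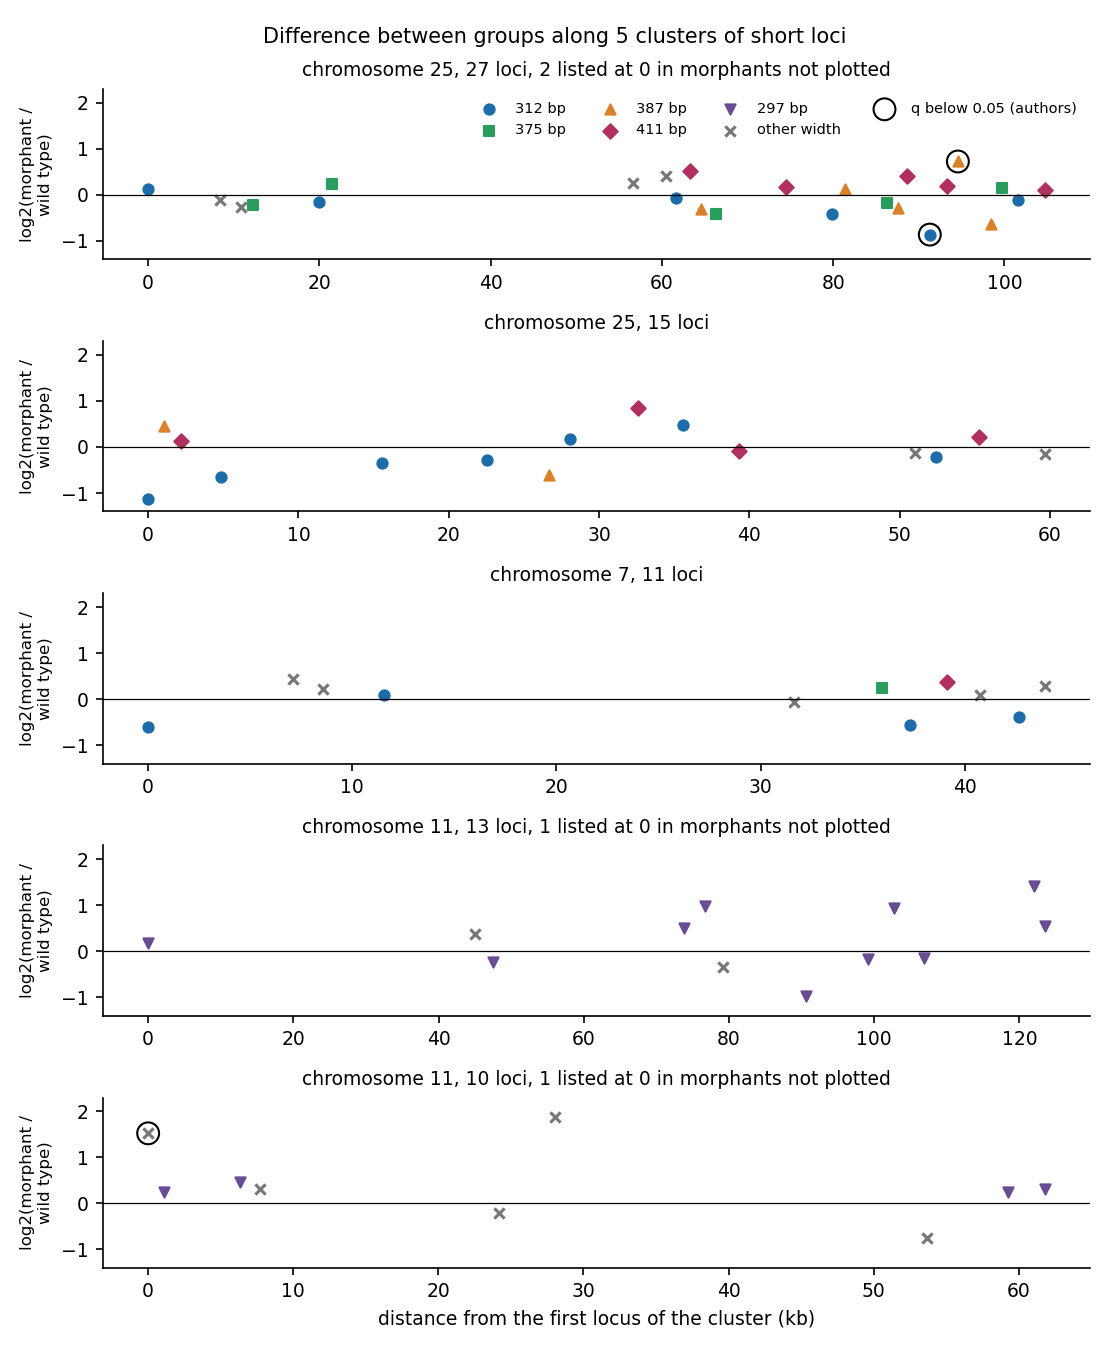
Log2 ratio of morphant to wild-type FPKM (vertical axes) of short loci along 5 clusters, against distance in kb from the first locus of the cluster (horizontal axes), with symbols for locus width and circles for called loci. On both chromosome 25 panels the loci of 411 bp lie at or above -0.10, while those of 312 bp reach down to -0.86 in the fullest cluster and to -1.13 in the other.

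The loci of 217 bp differed in opposite directions, and none of the 8 was called, against 6.23% of all listed features. The smallest unadjusted p-value among them in the authors' deposited table was 0.0469, for a locus on chromosome 1, and the other 7 were above 0.05. On chromosome 14, a locus at 11311030 to 11311247 stood at 14.4 FPKM in wild-type hearts, against 0.742 FPKM in morphants, and one at 11326347 to 11326564 stood at 0.351 and 19.8 FPKM. No call was made for either (q = 0.635 and 0.704 in the authors' deposited table). On chromosome 1, 2 of the 4 were listed at 0 in wild type and 1 in morphants. Both on chromosome 20 were listed at 0 in morphants, at 22.5 and 12.6 FPKM in wild type. Summed over the 8 loci the level was 63.8 FPKM in wild-type hearts, against 52.7 FPKM in morphants, whereas single loci differed by up to 56.5-fold.

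Differences were also wide under 200 bp. Of the 35 loci, 14 were above 0 in both groups, and their median absolute log2 fold change was 1.28, against 0.31 for the 78 such loci of 300 to below 500 bp. The summed level of the 35 was 4020 FPKM in wild-type hearts, against 4089 FPKM in morphants, a ratio of 1.02. The largest uncalled difference of short loci above 0 in both groups, with at least 20 FPKM in 1 of them, was a 138-bp locus on chromosome 21 (7586206 to 7586344), at 98.8 and 5.67 FPKM, 17.4-fold lower in morphants (q = 0.768 in the authors' deposited table). A 131-bp locus on chromosome 15 (43993989 to 43994120) stood at 240 and 42.0 FPKM, and a 135-bp locus on chromosome 3 (55224901 to 55225036) at 80.3 and 16.8 FPKM. In the other direction a 171-bp locus on chromosome 9 (212694 to 212865) stood at 20.4 and 85.6 FPKM, 4.19-fold higher (q = 0.675 in the authors' deposited table). Next were a 300-bp locus on chromosome 11 (12206103 to 12206403), at 6.15 and 22.5 FPKM, and a 314-bp locus on chromosome 14 (19713616 to 19713930), 3.62-fold higher at 39.8 FPKM in morphants. The mitochondrial genome had 1 short locus, of 315 bp (6108 to 6423), at 44.0 and 58.4 FPKM without a call (q = 0.727 in the authors' deposited table).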

How the data were processed

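The submitters' processing notes name Cuffdiff, Cufflinks 2.2.1, STAR 2.5.0c, FastQC 0.11.4, Trim Galore 0.4.1 with cutadapt 1.9.1, and bcl2fastq, and the build GRCz10. Not given in the sources used here are the annotation, strand setting and normalisation. The authors' deposited table gives 1 FPKM value per feature and group, merged over 3 libraries, with a p-value and a q-value. The deposited log2 fold change, which equalled the recomputed one within 0.001 for all 15536 features above 0 in both groups, was used for that comparison only, because it holds error cells at 0. The p-values, ranks and q-values of the deposited table give 19969 features adjusted over, of which 3586 are not listed. Depth is unknown. Coordinates are those of the deposited table. Folds are log2 of morphant over wild type, with no pseudocount. Comparison loci were weighted to the short loci's mix of 4 bands (limits 5, 20 and 100 FPKM). Intervals are 95% Wilson or order-statistic intervals, treat loci as independent and do not measure variation between embryos. No test was run besides the authors' own. The comparison of medians was run on simulated folds with known shifts. Those shifts were the same at every level, so the weighting by level itself was not tested. The loci, lists and named members were chosen with earlier results of these data known, and the repeated widths and clusters after values were seen. Members were named by rule: called members, the 5 most abundant, the 3 largest uncalled differences each way, the mitochondrial locus and those at the limits. Marker and small RNA gene lists were not analysed here, since no identifier matched a gene name. Alternatives were other limits of q-value, width and level, the long arm of chromosome 4 kept, loci at 0 or with shared coordinates left out, a pseudocount, recentring and other comparison loci. Versions were matplotlib 3.10.9, scipy 1.17.1, pandas 2.3.3 and numpy 2.4.6 under Python 3.11.15.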

Additional observations from a re-analysis of the deposited data

How the results depend on the processing

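Of 72 alternative values for the short loci, 56 stayed within 1.5 times (counts) or within the 95% interval (shares, medians). The 4 rises became 1 at a q-value below 0.01 (2.50% called in all), 2 among 73 loci under 300 bp and 15 among 309 loci under 1000 bp. The 4 falls became 10 under 1000 bp and 1 among the 122 loci above 0 in both groups. Rises and falls together were 6.85% under 300 bp, 8.09% under 1000 bp and 3.28% without loci listed at 0. These shares lay inside the 95% interval of the main share, and 6.23% of all listed features were called. Under 300 bp the median log2 fold change was 0.28, which was 0.11 above the comparison loci (main -0.06), at a median of 35.1 FPKM in wild type; under 1000 bp that level was 21.2 FPKM. With chromosomes 7 and 25 left out, added after the data were seen, the values were 0.31, 0.14 and 20.9 FPKM. There were then 2 falls among 94 loci (5.32% called in all). Without loci under 200 bp, also added, there was 1 fall among 125 loci (3.20% called in all). With starts counted from 1, also added, 10.3% in place of 71.3% of the loci of 300 to below 500 bp held a whole number of codons. The cause was not tested beyond the change of loci itself. With a pseudocount of 1 over all 160 loci the median was -0.10, and recentred -0.03. No paired analysis was possible because single libraries have no values of their own in the table, and leaving out replicates was not run for the same reason. Depth is unknown, so no detection limit was set.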

Other observations

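Besides the 160, 27 loci under 500 bp are listed. On the long arm of chromosome 4 there are 18, of which 16 measured 163 to 165 bp. Of these 16, 8 were lower in morphants, 5 were listed at 0 in morphants and 3 were higher. Cuffdiff called none, and none was below an unadjusted p-value of 0.05, against 6.23% and 17.8% of all listed features. The highest in wild type, at 30940523 to 30940687, was at 46.6 FPKM in wild type, against 9.70 FPKM in morphants, and the highest in morphants, at 67931132 to 67931296, at 13.8 and 63.0 FPKM. In the RefSeq table of GRCz12tu, all 258 genes of 164 bp are snRNA genes (small nuclear RNAs, components of the spliceosome), and 257 of them are on chromosome 4. No name was given to the loci. Among the 160, 1 locus measured 164 bp, on chromosome 8, at 26.6 FPKM in wild type and listed at 0 in morphants.

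A further 8 loci under 500 bp reached at least 1000 FPKM, of which 2 were called, against 6.23% of all listed features. These 8 loci are too few for a share to be set beside that. A 303-bp locus on chromosome 2 (37844278 to 37844581) rose 2.71-fold, from 537 to 1455 FPKM (q = 0.00173 by the authors' deposited table). A 216-bp locus on chromosome 1 (15765587 to 15765803) fell from 2581 to 1453 FPKM (q = 0.0124 by the authors' deposited table). On chromosome 1, a pair of 88-bp loci 551 bp apart were both lower in morphants: the first (7235368 to 7235456) stood at 4688 and 1728 FPKM, and the second (7236007 to 7236095) at 1038 FPKM in wild type and listed at 0 in morphants. Neither was called (q = 0.517 and 0.487 in the authors' deposited table). A locus of 297 bp on chromosome 11 (12203684 to 12203981) stood at 1162 and 873 FPKM (q = 0.291 in the authors' deposited table). A 115-bp locus on chromosome 20 stood at 1040 and 593 FPKM. The most abundant were a 298-bp locus on chromosome 3, at 83651 and 102561 FPKM, and a 322-bp locus on chromosome 13, at 33499 and 38069 FPKM. Both were higher in morphants and uncalled (q = 0.730 and 0.802 in the authors' deposited table).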
